A study of Sus scrofa with 9 samples.

Results

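The genes described here store iron inside cells, carry it to its storage protein or send it out of the cell. They were chosen by name: FTH1 and FTL for storage, NCOA4, PCBP1 and PCBP2 as cargo receptor and chaperones, and SLC40A1, CP and HEPH for export. All 8 were found, each once, among the 25918 genes measured in pig liver.

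Livers of 9 Wujin pigs, a Chinese breed, were measured by RNA sequencing, with 3 pigs to a diet group. The basic diet was the same in all groups and, per the paper, held some iron of its own. On top of it the low-iron group was given no added iron, the control group 100 mg/kg and the high-iron group 200 mg/kg, as iron glycinate. Feeding began at 35 days of age, and a prefeeding of 5 days was followed by the trial of 30 days. Each library came from a separate pig housed on its own, so p-values here measure the spread between animals. The study used both sexes, and the sex behind each library is not given in the labels. No tissue iron, serum value or protein was analysed here, and the libraries are named below by their group and animal number.

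Iron that enters a liver cell is handed by the chaperones PCBP1 and PCBP2 to ferritin, a hollow shell built from heavy chains (FTH1), which oxidise the iron, and light chains (FTL), which help it to form a mineral core. NCOA4 is the receptor that takes ferritin to the lysosome, where its iron is freed. SLC40A1 (ferroportin) is the iron exporter, the target of the liver hormone hepcidin (HAMP), and ceruloplasmin (CP) and hephaestin (HEPH) are copper oxidases that prepare exported iron for transport in blood. When a cell is short of iron, iron regulatory proteins bind a hairpin called the iron responsive element in the messenger RNA. Bound near the 5′ end, as in ferritin and ferroportin messages, they hold back translation, whereas in the 3′ end of the transferrin receptor message (TFRC) they protect it from decay.

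The hairpins are shown because they mark the members whose protein can be regulated without a change in the RNA level measured here. They were read from the RefSeq annotation of the genome build Sscrofa11.1, in the 5′ untranslated region and on the strand of the gene. The capitals mark the bulged C and the loop of 6 bases, and the 5 bases between them pair with the 5 bases after the loop.
FTH1, chr2:9535176-9535203, plus strand: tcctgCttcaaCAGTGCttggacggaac
FTL, chr6:54231195-54231222, plus strand: tcttgCttcaaCAGTGTttggacggaac
SLC40A1, chr15:94161660-94161687, minus strand: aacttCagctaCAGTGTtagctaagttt

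All 5 upper stem bases were paired in each of these elements, and they lie in exonic sequence 160 bases (FTH1), 172 bases (FTL) and 223 bases (SLC40A1) ahead of the start codon, counted from the bulged C in the transcript with the longest 5′ untranslated region (290, 251 and 334 bases). The other FTH1 transcript has a region of 104 bases that also holds the element. The search asked for a C, any 5 bases and the loop CAGTGN on the sense strand of annotated 5′ untranslated regions of at least 17 bases. These letters alone occurred in 3685 of 17787 genes (20.7%), and with the fully paired stem in 71 (0.399%), among them ALAS2, which carries a known element. HEPH, NCOA4 and PCBP2 held the letters with 1, 3 and 0 paired bases, and neither CP nor PCBP1 held them. A match is a description of the sequence and no match speaks only of this region.

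The deposited values are FPKM, fragments scaled to transcript length and to the mapped fragments of the library, which set genes on a common scale per length. The paper lists the mapped reads of each library, but the number of reads behind a single value is not given, since the table holds no counts. The summed FPKM was 416922 to 456420 per library, and any 2 libraries had a correlation of 0.928 to 0.962 across genes. Of 12584 genes with a mean of at least 0.5 FPKM that were tested, 7 were members, and HEPH fell below that level. The 10 hepatocyte markers, among them ALB and APOA1, summed to 67387 to 92134 FPKM, and the lists for other cell types summed to less.

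Ferritin was among the most abundant messages of every liver. FTL ranked between 9 and 22 of all genes and FTH1 between 19 and 37, and together they took 1.23% ± 0.183 of the summed FPKM in the low-iron group, 1.25% ± 0.157 in the control group and 1.04% ± 0.171 in the high-iron group (SD, n = 3). The order of mean FPKM over the 9 livers was FTL, FTH1, CP, SLC40A1, PCBP2, PCBP1, NCOA4 and HEPH. FTL exceeded FTH1 in 9 of 9 livers, by 1.39-fold on average (exact sign-flip test, p = 0.00391, the smallest this test can give). The steps from FTH1 to CP, CP to SLC40A1, PCBP2 to PCBP1 and NCOA4 to HEPH also held in 9 of 9 livers, and those from SLC40A1 to PCBP2 and from PCBP1 to NCOA4 in 8 of 9 (exact p = 0.00781 and 0.0195). The ranges over livers of FTL and FTH1, SLC40A1 and PCBP2, PCBP2 and PCBP1, and PCBP1 and NCOA4 overlapped.

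**Figure D1:**
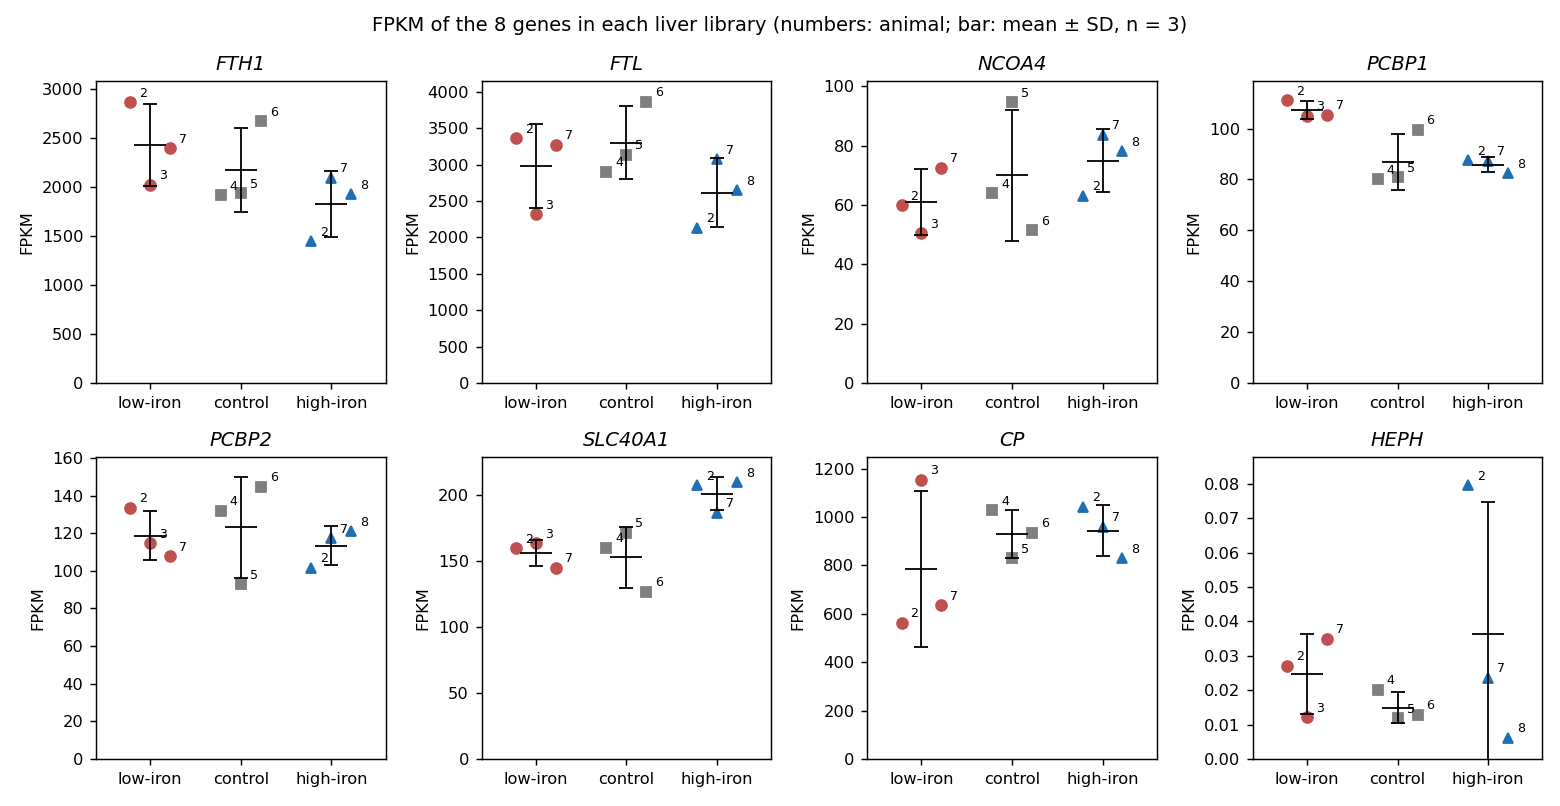
FPKM (vertical axes, from 0, a different scale for each gene) of the 8 genes in each liver library by diet group, with the animal number beside each point and the mean ± SD of 3 libraries as bars (the lower bar of HEPH in the high-iron group is cut at 0). SLC40A1 is higher in all 3 high-iron livers than in any other liver, PCBP1 is higher in all 3 low-iron livers, and the other genes overlap between groups.

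The heavy chain of ferritin did not separate the groups. FTH1 was at 2862, 2024 and 2397 FPKM in low-iron animals 2, 3 and 7, at 1915, 1935 and 2667 in control animals 4, 5 and 6, and at 1450, 2094 and 1926 in high-iron animals 2, 7 and 8. The low-iron group held the highest liver and the high-iron group the lowest, with overlap between all groups. Group means were 2428 ± 420, 2173 ± 428 and 1823 ± 334 FPKM (SD, n = 3). On the log2(FPKM + 0.1) scale, the difference was 0.16 ± 0.26 (SE) for low-iron against control and −0.25 ± 0.26 for high-iron against control, and neither passed the test (limma, adjusted p = 0.9998 and 0.987). Leaving out 1 liver gave 0.037 (without low-iron 2) to 0.32 (without control 6) for the first and −0.36 (without high-iron 7) to −0.096 (without high-iron 2 or control 6) for the second.

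The light chain did not separate them either. FTL was at 3360, 2315 and 3272 FPKM in the low-iron livers, 2905, 3136 and 3863 in the control livers and 2131, 3071 and 2648 in the high-iron livers. Its highest value was in the control group, and its log2 differences from control were −0.16 ± 0.27 in the low-iron group and −0.34 ± 0.27 in the high-iron group (SE; limma, adjusted p = 0.9998 and 0.945). FTH1 and FTL levels went together over the 9 livers, with Pearson's r = 0.83 (exact permutation p = 0.00585, adjusted over 7 relations 0.0205) and Spearman's rho = 0.83 (exact p = 0.00827, adjusted 0.0579). Without the 2 livers farthest from the median of FTH1 on the log2 scale, high-iron 2 and low-iron 2, r was 0.74 (exact permutation p = 0.0579). Both values of a liver share its library and scaling.

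The balance of the chains was also compared. The FTH1 to FTL ratio of FPKM was 0.852, 0.874 and 0.733 in the low-iron livers, 0.659, 0.617 and 0.690 in the control livers and 0.680, 0.682 and 0.727 in the high-iron livers. All 3 low-iron livers had a higher ratio than any other liver, and the light chain message was the larger in 9 of 9. The 3-group difference had p = 0.0107 by an exact permutation test of 1680 assignments, whose smallest p is 0.00357, and 0.0536 after adjustment over the 5 ratios examined, so it did not pass after adjustment. The low-iron mean was 0.32 higher than the control mean on the log2 scale (exact permutation p = 0.1, the smallest that 3 against 3 livers allow). Leaving out 1 liver gave an exact permutation p of 0.0107 to 0.0571, and the values of 0.05 and above came without control 4 or 5 or without high-iron 2, 7 or 8.

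**Figure D2:**
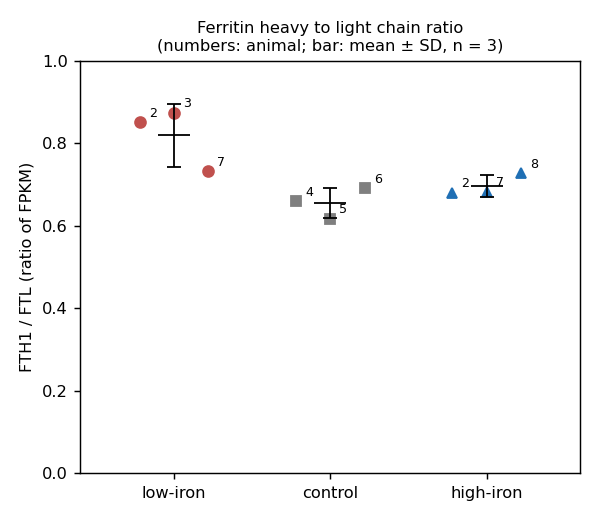
Ratio of FTH1 to FTL (vertical axis, FPKM divided by FPKM, from 0) in each liver by diet group, with the animal number beside each point and the mean ± SD of 3 livers as bars. The low-iron livers lie at 0.733 to 0.874 and the others at 0.617 to 0.727.

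FTH1 and FTL have many relatives in the pig genome, which can draw reads from them. Over at least 90% of the coding sequence, 12 further genomic copies of FTH1 were found with 72.0% to 91.4% identity, and 23 of FTL with 72.5% to 89.2%. None reached 95%, and how the authors' counting shared ambiguous reads is not given in the sources used here, so the FTH1 and FTL levels carry this uncertainty. LOC100521930, annotated as ferritin light chain-like, stood at 0 in all 9 livers.

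NCOA4, the ferritin receptor for the lysosome, varied within groups more than between them. It was at 59.8, 50.5 and 72.6 FPKM in the low-iron livers, 63.9, 94.5 and 51.6 in the control livers and 63.1, 83.6 and 78.2 in the high-iron livers. The control group alone spanned nearly the whole range. The log2 differences from control were −0.17 ± 0.24 in low-iron livers and 0.13 ± 0.24 in high-iron livers (SE; limma, adjusted p = 0.9998 and 0.994). Across the 9 livers NCOA4 and FTH1 had r = −0.26 (exact permutation p = 0.495), and the difference of the NCOA4 to FTH1 ratio between the 3 groups did not pass the test (exact permutation p = 0.204, adjusted 0.254). Without control 6 that ratio gave an unadjusted exact permutation p of 0.0464.

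PCBP1 was the least variable of the tested members. It was at 111, 105 and 105 FPKM in the low-iron livers, 80.1, 80.8 and 99.6 in the control livers and 87.5, 87.4 and 82.5 in the high-iron livers. Every low-iron liver exceeded every other liver, by means of 107 ± 3.43 against 86.8 ± 11.04 in the control group and 85.8 ± 2.83 in the high-iron group (SD, n = 3). The SD within groups was 0.11 on the log2 scale, and only 1.41% of all tested genes had a smaller one. PCBP1 was 0.31 ± 0.16 higher in low-iron than in control livers and differed by −0.32 ± 0.16 in high-iron against low-iron livers (log2 ± SE), and neither difference passed adjustment (limma, adjusted p = 0.9998 and 0.731). The 3-group exact permutation p was 0.0429, and 0.864 adjusted over all genes tested, of which 5.37% had a p below 0.05. With median-of-ratios scaling it was 0.114 and with quantile normalization 0.232, and leaving out 1 liver gave 0.00714 to 0.0857, with values above 0.05 without any 1 low-iron liver, any 1 high-iron liver or control 5.

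PCBP2, the close relative of PCBP1, gave no such separation. Its values were 133, 115 and 108 FPKM in the low-iron livers, 132, 92.8 and 145 in the control livers and 102, 117 and 121 in the high-iron livers. Its lowest and highest livers were both controls, and its 3-group exact permutation p was 0.861. The PCBP1 to PCBP2 ratio was below 1 in 9 of 9 livers, from 0.607 to 0.978, and its difference between groups did not pass the test (exact permutation p = 0.186, adjusted 0.254), though without control 5 its unadjusted p was 0.0393. PCBP2 coding sequence aligned to the PCBP1 gene over 24.9% of its length at 87.1% identity, and the levels of the pair are uncertain where reads fall there. PCBP1 has a single exon, while PCBP2 has 44 annotated transcripts.

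SLC40A1, the iron exporter, had its 3 highest values in the high-iron livers. It was at 160, 164 and 145 FPKM in the low-iron livers, 160, 172 and 127 in the control livers and 207, 187 and 210 in the high-iron livers. No high-iron liver overlapped with another group, and the low-iron and control livers lay side by side. The high-iron mean was 201 ± 12.6 against 153 ± 23.3 in the control group and 156 ± 9.88 in the low-iron group (SD, n = 3). The log2 difference from control was 0.41 ± 0.18 (SE), 1.33-fold with an interval of 1.01 to 1.74, and its limma p was 0.0429, with an adjusted p over all genes of 0.892. Against the low-iron group it was 0.37 ± 0.18 (adjusted p = 0.719), and the low-iron and control groups differed by 0.04 ± 0.18 (adjusted p = 0.9998). The 3-group exact permutation p was 0.0357 and 0.840 after adjustment over all genes. It was 0.075 with values rescaled to TPM, 0.186 with median-of-ratios scaling and 0.136 with quantile normalization, and leaving out 1 liver gave 0.0214 to 0.121, with 0.05 or more without low-iron 2 or 3 or any 1 high-iron liver.

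Macrophages of the liver, the Kupffer cells, are rich in ferroportin, and most of their markers were also highest in the high-iron group. All 12 markers were above 0 in every liver, and in the high-iron group against control 11 of 12 were higher, 7 with no overlap between groups and 7 with an unadjusted limma p below 0.05, with a median log2 difference of 0.52. Over all genes tested 65.0% were higher (46.1% with median-of-ratios scaling), 9.14% were higher with no overlap, 5.59% had such a p in either direction, and the median was 0.10. Their summed level was 975 to 1150 FPKM in the low-iron livers, 879 to 1126 in the control livers and 1161 to 1395 in the high-iron livers. VSIG4, a Kupffer cell receptor, was at 17.98 to 31.3 FPKM and was 0.61 ± 0.16 higher in the high-iron than in the control group, and CD163, the receptor for haemoglobin and haptoglobin, was 0.57 ± 0.17 higher (log2 ± SE; limma, adjusted p = 0.885 for both). CD5L, another macrophage gene, differed by −0.22 ± 0.17 (adjusted p = 0.945). MARCO, counted among the 11, was level at 0.00038 ± 0.53. In bulk tissue more cells of a type and more RNA per cell cannot be told apart.

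SLC40A1 and the mean log2 level of the 12 macrophage markers had r = 0.80 over the 9 livers (exact permutation p = 0.0102, adjusted over 7 relations 0.0238) and rho = 0.65 (exact permutation p = 0.0666, adjusted 0.155). Both measures were higher in every high-iron liver than in any liver of the other groups, so this r includes the group differences. A relation within diet groups was not tested. SLC40A1 fell as the marker level rose in the control livers, rose with it in the low-iron livers and had no steady order in the high-iron livers. Without high-iron 8 and high-iron 2, the livers farthest from the median of the marker level, the r was 0.49 over 7 livers (exact permutation p = 0.269). These are 2 of the 3 high-iron livers, and a relation among the remaining 7 livers was not detected. Leaving out any 1 liver gave an r of 0.72 to 0.90. Markers of other non-parenchymal cells were also higher in the high-iron than in the control group: 7 of 8 endothelial markers, 7 of 8 stellate cell and fibroblast markers, 4 of 5 bile duct markers and 6 of 6 T cell markers, while 0 of 2 tested red cell genes were higher. Of the hepatocyte markers 3 of 10 were higher, with a median log2 difference of −0.09. Over all genes tested 65.0% were higher in this comparison, and 46.1% with median-of-ratios scaling. Among these markers VWF, COL1A1, RGS5 and CD8A passed both a fold of at least 2 and an unadjusted limma p below 0.05, as did 1.57% of all genes tested. The part of these cells in the SLC40A1 difference was not tested.

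**Figure D3:**
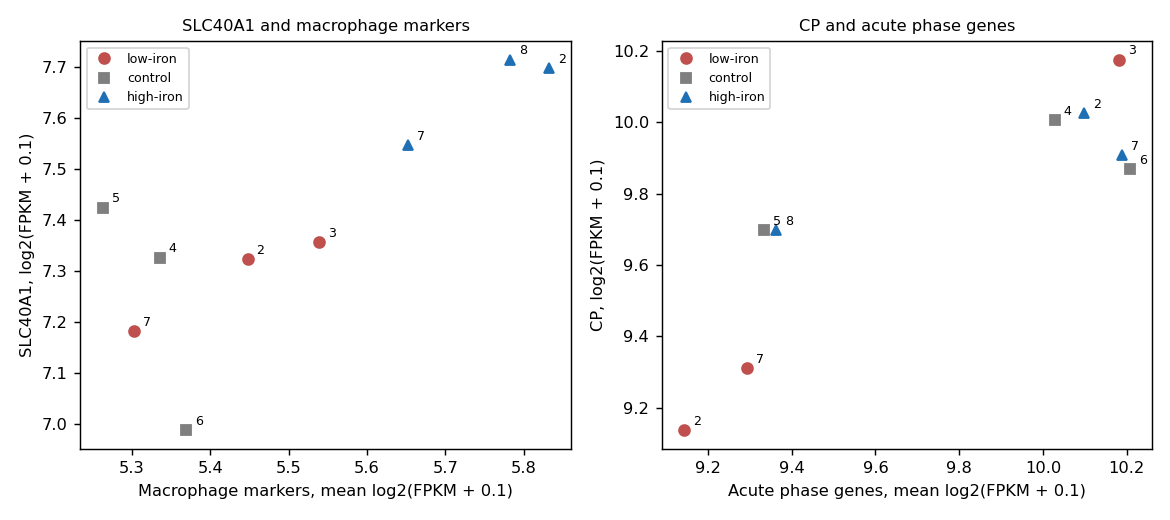
Left, SLC40A1 against the mean of 12 macrophage markers, and right, CP against the mean of 16 acute phase genes, all as log2(FPKM + 0.1), with 1 point per liver, its animal number, and its diet group by symbol. The high-iron livers are at the upper right on the left, and on the right the livers form a lower set of 4 and an upper set of 5 on the horizontal axis.

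A relation between hepcidin and ferroportin messages was not detected across these livers. The paper describes hepcidin as acting on the ferroportin protein, which was not measured here. HAMP was at 3.84, 2.02 and 70.5 FPKM in the low-iron livers, 50.3, 42.0 and 16.2 in the control livers and 52.3, 6.87 and 21.8 in the high-iron livers. Its values spread widely within every group, and its r with SLC40A1 was 0.06 (exact permutation p = 0.881) with rho = 0.03 (exact permutation p = 0.948). The SLC40A1 to FTH1 ratio, export against storage, was 0.0559 to 0.0809 in the low-iron group, 0.0475 to 0.0887 in the control group and 0.0892 to 0.143 in the high-iron group. The high-iron livers did not overlap with the others, and the 3-group exact permutation p was 0.0857 (adjusted 0.214), or 0.0321 unadjusted without control 6.

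CP, the ferroxidase of plasma, is made by hepatocytes and is also an acute phase protein. It was at 563, 1156 and 635 FPKM in the low-iron livers, 1028, 830 and 935 in the control livers and 1042, 960 and 831 in the high-iron livers. Low-iron animal 3 had the highest value of all and the other low-iron livers the lowest. The log2 difference from control was −0.32 ± 0.28 in the low-iron group and 0.02 ± 0.28 in the high-iron group (SE; limma, adjusted p = 0.9998 and 0.995), and the 3-group exact permutation p was 0.439. These values hang on single livers. Without low-iron 3 the low-iron difference was −0.63 (limma, unadjusted p = 0.0173) and the 3-group exact permutation p was 0.025, and without low-iron 2 they were −0.11 (limma, unadjusted p = 0.710) and 0.907.

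The mean log2 level of the 16 acute phase genes divided the livers into separate sets, so no correlation with CP is given. Haptoglobin (HP) and ITIH4 split the livers in this way, but not every gene of the list did. ORM1, for example, was at 1400 FPKM in low-iron 2 and 791 in control 4. SAA4 was at 0.449, 0.893 and 0.878 FPKM in low-iron 2, low-iron 7 and control 5. In high-iron 8 SAA4 was at 36.6, within its range of 29.7 to 77.8 in the upper 5 livers. A mean of log2 levels leans on a gene that varies so widely, and the sets without SAA4 were not examined. Low-iron 2 and 7, control 5 and high-iron 8 had a mean log2 level of 9.14, 9.29, 9.33 and 9.36 with CP at 563, 635, 830 and 831 FPKM. The other 5 livers, from all groups, lay between 10.03 and 10.21 in mean log2 level and between 935 and 1156 FPKM in CP. In low-iron against control livers 12 of the 16 acute phase genes were lower, with a median log2 difference of −0.26 and none with an unadjusted p below 0.05 (limma). The symbol CRP stands for more than a single row among them. Over all genes tested 62.7% were higher (49.6% with median-of-ratios scaling), the median was 0.08, and 3.68% had such a p. The part of the acute phase in the CP values was not tested.

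HEPH, the membrane-bound oxidase known from the intestine, was barely present. Its values were 0.0272, 0.0121 and 0.0349 FPKM in the low-iron livers, 0.0202, 0.0118 and 0.0129 in the control livers and 0.0797, 0.0237 and 0.00612 in the high-iron livers. The high-iron group held both the highest and the lowest value. CP exceeded HEPH by at least 13083 times in each of the 9 livers. LOC100158001, a ceruloplasmin-like gene beside CP, reached no more than 0.0828 FPKM.

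Taking the 7 tested members over the 3 comparisons, none of the 21 differences reached a fold of 2 with an unadjusted p below 0.05. In low-iron against control 0 of 7 were called, against 0.882% of all genes tested, and in high-iron against control 0 of 7 against 1.57%. In high-iron against low-iron it was 0 of 7 against 1.54%. An unadjusted limma p below 0.05 was found for 0 of 7 in low-iron against control (3.68% of all genes), 1 of 7, SLC40A1, in high-iron against control (5.59%) and 0 of 7 in high-iron against low-iron (7.15%). Adjusted p-values ran from 0.719 to 0.9998.

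Groups that did not overlap were found for PCBP1 in low-iron against control (1 of 7 higher, 6.1% of all genes), SLC40A1 in high-iron against control (1 of 7 higher, 9.14%) and, in high-iron against low-iron, SLC40A1 (1 of 7 higher, 8.11%) and PCBP1 (1 of 7 lower, 5.13%). All 21 intervals at 95% lay within a 2-fold change either way, where 66.7%, 63.9% and 62.2% of all genes tested had such intervals in these comparisons. The widest bounds were 0.503-fold for FTH1 and 1.93-fold for CP, both in high-iron against low-iron. These bounds belong to the main fit and were not examined under the alternatives. Without the filter on low FPKM, the FTH1 difference in low-iron against control stayed at 0.16. Its limma p rose from 0.544 to 0.858, so the interval there was wider. The members' median log2 difference was −0.03, −0.01 and −0.07, beside 0.08, 0.10 and 0.03 over all genes. The high-iron and low-iron comparisons with control share the control livers.

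**Figure D4:**
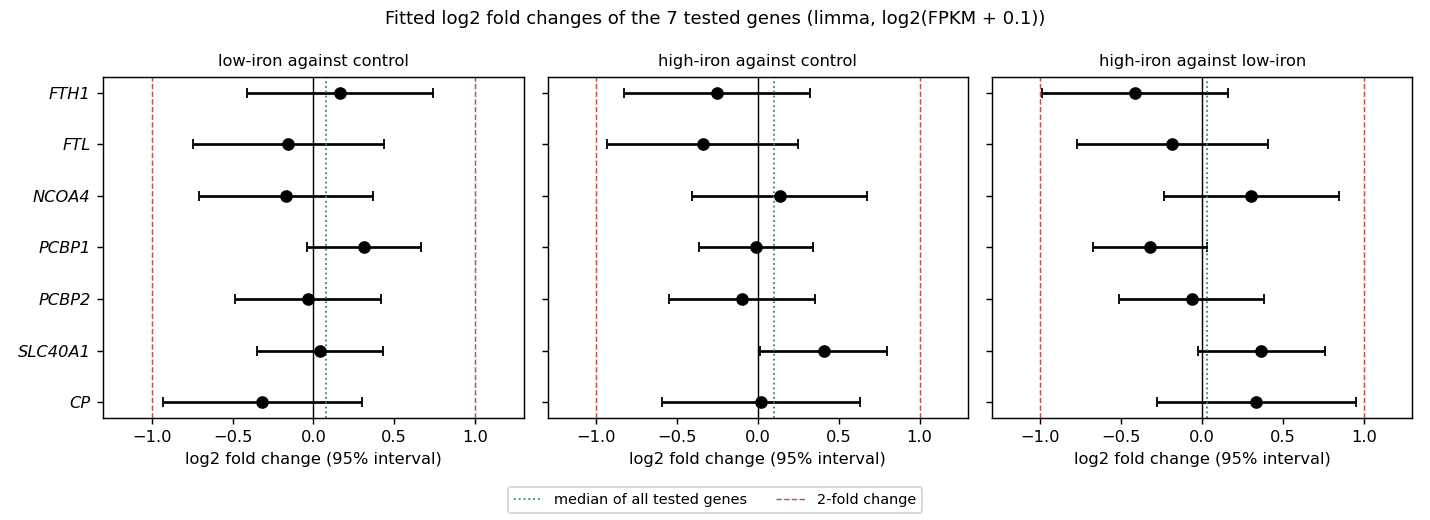
Fitted log2 fold changes (horizontal axis, log2(FPKM + 0.1) scale) of the 7 tested genes in each comparison, as points with 95% intervals, with the median of all genes tested as a dotted line and a 2-fold change as dashed lines. All intervals lie within the dashed lines, and the interval of SLC40A1 in high-iron against control is the only one that leaves out 0.

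TFRC, the transferrin receptor that takes iron up and whose message is protected when iron is short, shows the range the same livers could display. It was at 87.9, 130 and 28.6 FPKM in the low-iron livers, 6.51, 17.04 and 7.51 in the control livers and 40.6, 15.9 and 18.5 in the high-iron livers. Every low-iron liver exceeded every control liver, by 2.86 ± 0.56 on the log2 scale (limma, unadjusted p = 0.000412, adjusted p = 0.9998). TFRC levels had r = 0.04 with FTH1 over the 9 livers (exact permutation p = 0.923). Without low-iron 2 the r was −0.32.

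The other genes of the pathway were listed by role. Of 8 tested genes for storage, chaperones and export outside the members, such as GLRX3 and FLVCR1, none was called in any comparison, and FTMT, mitochondrial ferritin, was at 0. Of 14 tested gene rows for iron uptake and its regulatory proteins, where TF has more than a single row, only TFRC was called, in all 3 comparisons. It was higher than control in the low-iron group and also in the high-iron group, there by 1.27 ± 0.56 (log2 ± SE; limma, unadjusted p = 0.0466, adjusted p = 0.892). In high-iron against low-iron livers TFRC was lower. None of 7 for hepcidin and its regulators, none of 6 for copper delivery, none of 17 for autophagy and ferritin breakdown and none of 16 for the acute phase was called. Over all genes tested 0.882% were called in low-iron against control, 1.57% in high-iron against control and 1.54% in high-iron against low-iron. At these shares, lists of this size would hold few or no calls. A list of 12 was tested for NRF2, the transcription factor of the oxidant response, which can drive ferritin genes. Of these SLC7A11, a cystine carrier, was called in low-iron against control, lower by 1.39 ± 0.58 on the log2 scale (limma, unadjusted p = 0.0380, adjusted p = 0.9998). Its mean was 1.04 FPKM, and the groups overlapped (low-iron 3 at 0.721, control 6 at 0.547). In that comparison 9 of the 12 were higher and 3 lower, with a median log2 difference of 0.21 beside 0.08 over all genes.

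Among the members, SLC40A1 ran opposite to both ferritin chains over the 9 livers, with r = −0.74 with FTH1 and −0.73 with FTL, given as a description since all values of a liver share its scaling. Among 11123 tested genes with a symbol, those most like each member over the 9 livers by Pearson's r were COPS3 and PPIA for FTH1 (0.95 and 0.95), FAAH and POLDIP2 for FTL (0.96 and 0.95), and TLK1 and FAM214A for NCOA4 (0.93 and 0.93). For PCBP1 they were TMEM150B and EIF2S1 (0.94 and 0.93), and for PCBP2 OLFML3 (0.97). For SLC40A1 they were MGAT4A and ARAP2 (0.96 and 0.96) and for CP RIMBP2 and TOPBP1 (0.96 and 0.95). These genes were picked for the highest r among 11123 over only 9 livers. Values this high can be reached in such a search without any relation, and none was tested.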

How the data were processed

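Liver RNA libraries from 9 pigs were grouped by the series' design text. Per the labels and methods, the authors sequenced poly(A)-selected RNA, mapped clean reads by HISAT2 to the build Sscrofa11.1, used StringTie for assembly and deposited FPKM per gene and library. The FPKM scale by library total makes levels relative. Gene names were read from the serial numbers of NCBI annotation release 106. At this numbering all 20660 numbered rows fall on protein-coding genes, against 15031 when shifted by 1. The 5258 new genes have no name. In R 4.3.3, limma 3.58.1 was fitted to log2(FPKM + 0.1) of the 12584 genes whose mean reached 0.5 FPKM, with 3 groups, a trend and Benjamini-Hochberg adjustment over all these genes. A call needed a fold of at least 2 and an unadjusted p below 0.05. Exact permutation tests, ratios and correlations used Python 3.11.15 with scipy 1.17.1, and genomic copies blastn 2.17.0. The fits were tested on simulated data. The named genes are the members, called genes of the lists, markers that moved with a member, TFRC, HAMP and the 2 most correlated genes per member, of which 1 is not reported here. HP, ITIH4, ORM1, SAA4, CD5L, MARCO, GLRX3, FLVCR1, ALB, APOA1 and ALAS2 were named as examples, and the LOC genes as relatives. The members, lists and tests were chosen with earlier results of these data known. BOLA2, HJV, SERPINA3, KRT7, HBA and TRAC were not matched. Alternatives were other pseudocounts, filters and scalings, array weights, 2-group fits, a replicate block and leaving out each library.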

Additional observations from a re-analysis of the deposited data

How the results depend on the processing

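Of 385 alternative log2 fold changes of the members, 364 kept their direction and 21 turned, the largest of these 0.11 in size. No member was called under any alternative. Turned values were, with median-of-ratios scaling, −0.040 for SLC40A1 in low-iron against control and −0.11 for CP in high-iron against control. With quantile normalization they were −0.053 and −0.021 for the same pair and 0.057 for PCBP2 in high-iron against low-iron. PCBP1 in high-iron against control was 0.016 with TPM, and CP there −0.10 with array weights. Leaving out 1 liver gave in low-iron against control −0.22 to 0.095 for PCBP2, −0.37 to 0.070 for NCOA4, −0.087 to 0.13 for SLC40A1 and −0.25 to 0.017 for FTL. In high-iron against control it gave −0.060 to 0.11 for CP, −0.29 to 0.030 for PCBP2, −0.063 to 0.37 for NCOA4 and −0.065 to 0.092 for PCBP1, and in high-iron against low-iron −0.13 to 0.022 for PCBP2.

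The 3-group exact permutation p of PCBP1 was 0.114 with median-of-ratios scaling, 0.232 with quantile normalization and 0.00714 to 0.0857 on leaving out 1 liver. That of SLC40A1 was 0.075 with TPM, 0.186 with median-of-ratios scaling, 0.136 with quantile normalization and 0.0214 to 0.121 on leaving out 1 liver. That of CP was 0.025 to 0.907. For the ratios the exact permutation p on leaving out 1 liver was 0.0107 to 0.0571 for FTH1 to FTL, 0.0393 to 0.336 for PCBP1 to PCBP2, 0.0321 to 0.311 for SLC40A1 to FTH1 and 0.0464 to 0.354 for NCOA4 to FTH1. The r of TFRC with FTH1 was −0.088 with quantile normalization and −0.32 to 0.28 on leaving out 1 liver, and that of HAMP with SLC40A1 −0.12 to 0.23. Causes were not tested.

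Calls over all genes were 111 in low-iron against control, 197 in high-iron against control and 194 in high-iron against low-iron, and alternatives gave 34 to 235, 74 to 372 and 67 to 458. Leaving out 1 liver gave 111 to 209, 190 to 296 and 186 to 333. The calls were 75 higher and 36 lower, 160 and 37, and 127 and 67. With median-of-ratios scaling they were 53 and 47, 96 and 57, and 105 and 80, and with quantile normalization 51 and 46, 83 and 68, and 85 and 99. Median-of-ratios scaling moved the median log2 difference of high-iron against control from 0.10 to −0.03, and SLC40A1 there from 0.41 to 0.28. Low-iron and high-iron animals 2 and 7 share a number, and the labels do not say what it means. Correlations of their deviations were 0.018 and 0.021, beside −0.16 to 0.16 between animals of different number. These values cannot decide whether the animals are linked. A replicate block on the number called 458 genes in high-iron against low-iron and 0 members. The number of reads behind single values is not given, so precision rests on 3 livers a group.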
